A study of Homo sapiens and Mus musculus with 4 samples.

Results

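The genes described here carry out antigen presentation by MHC class I, the pathway by which cells show peptides of their own proteins to CD8 T cells, together with the catalytic subunits of the immunoproteasome. They were chosen by name, with earlier results of these data known. There are 18 members of 60736 genes measured, 9 of 32738 human genes and 9 of 27998 mouse genes. The human members are HLA-B, HLA-C, B2M, TAP1, TAP2, TAPBP, PSMB8, PSMB9 and NLRC5, and the mouse members are H2-K1, H2-D1, B2m, Tap1, Tap2, Tapbp, Psmb8, Psmb9 and Nlrc5.

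Bulk RNA sequencing was performed on 4 established cell lines of lymphoid origin, with 1 library per line, as a reference for methods that profile single cells. Jurkat is a human leukaemia line of T cells, described by the study as CD4 type. It was grown in RPMI-1640 with serum and penicillin-streptomycin. TALL104 is a human leukaemia line of CD8 type and was grown in IMDM with serum and interleukin-2, which the other lines did not receive. The study describes its cells as smaller than those of the other lines, slow to grow and of limited viability. EL4 comes from a mouse lymphoma of T cells and was grown in RPMI-1640 with serum and 2-mercaptoethanol. IVA12, a mouse B-lineage hybridoma, was grown in DMEM with serum and penicillin-streptomycin. The study names penicillin-streptomycin for Jurkat and IVA12 only. Line, culture medium and library cannot be told apart in this design. There were no replicates, so the spread within a line was not measured, no test was made, and each interval below is a 95% interval for counting error only. Levels are in FPKM, fragments scaled by gene length and by library size, which allows genes of different length to be set side by side within a library.

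In this pathway, proteasomes cut proteins into peptides, and the TAP1 and TAP2 proteins form the transporter that moves these peptides into the endoplasmic reticulum. There tapasin, encoded by TAPBP, holds the transporter and the empty class I molecule together until a peptide is bound. Each class I molecule pairs a polymorphic heavy chain with the invariant light chain beta-2 microglobulin. Interferon-gamma induces the genes of the pathway, in part through the transactivator NLRC5, and replaces the constitutive catalytic subunits of the proteasome with the immunoproteasome subunits.

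The library totals by which the FPKM had been scaled were 25286728 to 34783047, as recovered from the steps between FPKM values. These totals can be smaller than the number of reads sequenced. T-cell markers were present in both human lines, with a summed level over 5 genes of 753 FPKM in Jurkat and 572 FPKM in TALL104, and CD3D at 400.1 FPKM and 249.8 FPKM. Both human lines also had CD79A, at 16.5 FPKM in Jurkat and 24.6 FPKM in TALL104. In the mouse pair the summed level of the T-cell markers was 529.6 FPKM in EL4 against 11.3 FPKM in IVA12, and that of 5 B-lineage markers was 0.647 FPKM and 709 FPKM. Of the B-lineage markers, Mzb1 had 499 FPKM, Cd79b 163 FPKM and Ms4a1 46.5 FPKM in IVA12, whereas Cd79a, a defining B-cell gene, was near 0 there at 0.0543 FPKM. These markers differ between the same lines as the members, and their part in the members' values was not tested.

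Among human members, 6 of 9 were more than 1.5-fold higher in TALL104, 1 was higher in Jurkat and 2 lay within 1.5-fold. Over all human genes, 11.4% were higher in TALL104 by that measure and 13.8% in Jurkat, and over the 12214 genes of at least 1 FPKM in either line the shares were 28.4% and 34.2%. Among mouse members, 8 of 9 were more than 1.5-fold higher in EL4 and 1 was higher in IVA12. Over all mouse genes, 9.75% were higher in EL4 and 11.2% in IVA12, and over the 10801 genes of at least 1 FPKM in either line the shares were 23.8% and 26.5%. All 18 members had at least 1 FPKM in both lines of their species. These counts were taken on FPKM + 1. In a bulk library, fewer expressing cells and less RNA per cell cannot be told apart.

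The median log2 ratio of the human members, Jurkat over TALL104, was -1.66, beside 0.10 over all human genes of at least 1 FPKM in either line. The median log2 ratio of the mouse members, EL4 over IVA12, was 1.98, beside -0.04 over all mouse genes of at least 1 FPKM in either line. Summed over the members, the level was 446 FPKM in Jurkat and 2210 FPKM in TALL104, which is 0.176% and 0.876% of the human FPKM of these libraries. The mouse sum was 3030 FPKM in EL4 against 731 FPKM in IVA12, or 0.942% and 0.226% of the mouse FPKM. TALL104 and EL4 were thus the lines with the higher summed level in their species, and B2M or B2m made up most of each sum.

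**Figure D1:**
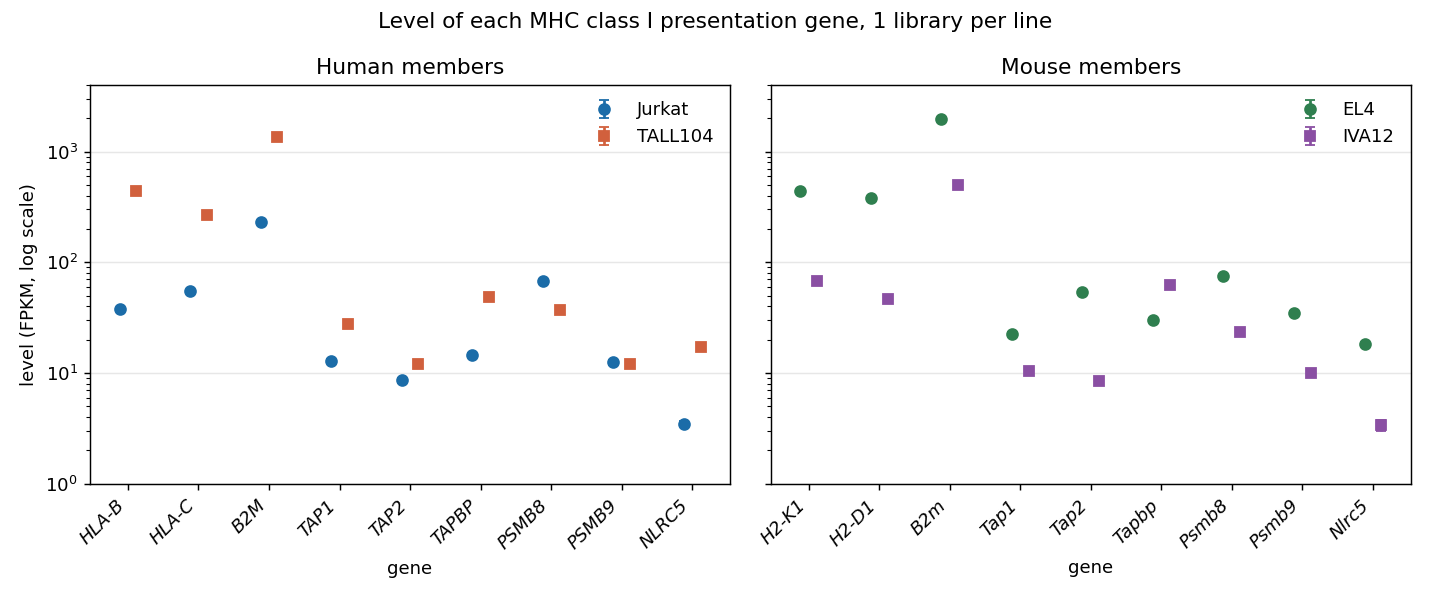
Level of each member in FPKM on a log scale, human genes at left (circles Jurkat, squares TALL104) and mouse genes at right (circles EL4, squares IVA12), with 95% counting intervals that are mostly smaller than the symbols. TALL104 lies above Jurkat for all human members but PSMB8 and PSMB9, and EL4 lies above IVA12 for all mouse members but Tapbp.

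Heavy chains bind the peptide and are read by T-cell receptors, and in each species a heavy chain, HLA-B or H2-D1, had the largest ratio among the members. HLA-B (ENSG00000234745, chromosome 6, 31321649 to 31334844 in hg19) measured 37.8 FPKM in Jurkat (interval 36.7 to 39.0) and 439 FPKM in TALL104 (434 to 443). This is an 11.6-fold higher level in TALL104 (interval 11.2 to 11.99), where HLA-B ranked 36 among 10822 human genes of at least 1 FPKM, against 1184 among 10857 in Jurkat. HLA-C (ENSG00000204525, chromosome 6, 31236526 to 31239907) measured 54.6 FPKM in Jurkat and 265 FPKM in TALL104, a 4.86-fold higher level in TALL104 (4.70 to 5.01). The order of these genes differed between the lines. HLA-C was above HLA-B in Jurkat and below it in TALL104, with an HLA-B to HLA-C ratio of 0.693 (0.664 to 0.722) and 1.65 (1.63 to 1.68).

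The mouse heavy chains were higher in EL4. H2-K1 (ENSMUSG00000061232, chromosome 17, 33996017 to 34000347 in mm10) measured 443 FPKM in EL4 (438 to 447) against 68.4 FPKM in IVA12 (66.4 to 70.4), a 6.47-fold higher level in EL4 (6.27 to 6.67). H2-D1 (ENSMUSG00000073411, chromosome 17, 35262730 to 35267499) measured 381 FPKM in EL4 against 46.2 FPKM in IVA12, an 8.24-fold higher level (7.94 to 8.56). H2-K1 was above H2-D1 in both lines, by a ratio of 1.16 in EL4 (1.14 to 1.18) and 1.48 in IVA12 (1.41 to 1.55).

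Heavy-chain genes of both species are highly polymorphic, and the reference holds a single allele of each. How completely reads of each line's own alleles aligned was not tested, and the haplotypes of the lines are not given in the sources used here. Exact copies of read-length stretches in other genes covered 0.905% of H2-K1, 3.55% of H2-D1 and 0.0972% of HLA-C. For HLA-B the share was 23.8%, all of it in DHFRP2, a pseudogene annotated inside HLA-B on the same strand that overlapped 30.7% of its exon bases. These shares describe GENCODE annotations, and the gene models used by the authors for counting can differ. HLA-B had 4623 exon bases in GENCODE, against a length of 3012 bases recovered from its FPKM. Whether DHFRP2 affected the counted HLA-B reads was not tested.

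B2M encodes the light chain shared by all class I molecules and was the highest member in every library. B2M (ENSG00000166710, chromosome 15, 45003556 to 45011049) measured 233 FPKM in Jurkat (231 to 236) and 1351 FPKM in TALL104 (1344 to 1359), a 5.79-fold higher level in TALL104 (5.71 to 5.87). B2m (ENSMUSG00000060802, chromosome 2, 122147686 to 122153083) measured 1972 FPKM in EL4 (1955 to 1988) against 499 FPKM in IVA12 (489 to 508), a 3.95-fold higher level in EL4 (3.87 to 4.04). In EL4 it ranked 11 among 9596 mouse genes of at least 1 FPKM. Neither gene shared an exact read-length stretch with another gene.

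The light chain exceeded each heavy chain by a factor that differed between lines. The B2M to HLA-B ratio was 6.17 in Jurkat (5.97 to 6.38) and 3.08 in TALL104 (3.04 to 3.11), and the B2M to HLA-C ratio was 4.27 and 5.09. The B2m to H2-K1 ratio was 4.45 in EL4 (4.396 to 4.51) and 7.29 in IVA12 (7.04 to 7.55), and the B2m to H2-D1 ratio was 5.18 and 10.8. The mouse heavy chains therefore differed between lines by more than the light chain did, and among the human chains this held for HLA-B and not for HLA-C.

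The peptide transporter genes differed less than the heavy chains in the human pair. TAP1 (ENSG00000168394, chromosome 6, 32812986 to 32821593) measured 12.9 FPKM in Jurkat (12.4 to 13.5) and 27.8 FPKM in TALL104 (26.9 to 28.7), a 2.15-fold higher level in TALL104 (2.04 to 2.27). TAP2 (ENSG00000204267, chromosome 6, 32789610 to 32806516) measured 8.57 FPKM in Jurkat and 12.04 FPKM in TALL104. Its level was 1.41-fold higher in TALL104 (1.32 to 1.496), which is within the threshold of 1.5-fold. In GENCODE, 17.5% of its read-length stretches also lay in the overlapping gene ENSG00000250264.

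Both mouse transporter genes were higher in EL4, by unequal factors. Tap1 (ENSMUSG00000037321, chromosome 17, 34187553 to 34197225) measured 22.7 FPKM in EL4 against 10.4 FPKM in IVA12, a 2.20-fold higher level in EL4 (2.07 to 2.33). Tap2 (ENSMUSG00000024339, chromosome 17, 34203527 to 34216321) measured 53.8 FPKM in EL4 against 8.41 FPKM in IVA12, a 6.39-fold higher level (5.94 to 6.89). The Tap1 to Tap2 ratio was 0.423 in EL4 (0.407 to 0.440) and 1.23 in IVA12 (1.13 to 1.34), so the more abundant transporter chain differed between the lines. In the human lines TAP1 was the higher chain in both, with a TAP1 to TAP2 ratio of 1.51 in Jurkat (1.42 to 1.602) and 2.31 in TALL104 (2.19 to 2.43).

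Tapasin was the member whose direction differed from that of the heavy chains in the mouse pair. TAPBP (ENSG00000231925, chromosome 6, 33267471 to 33282061) measured 14.7 FPKM in Jurkat (14.1 to 15.2) and 48.6 FPKM in TALL104 (47.4 to 49.7), a 3.31-fold higher level in TALL104 (3.16 to 3.47). Tapbp (ENSMUSG00000024308, chromosome 17, 33915899 to 33929292) measured 30.2 FPKM in EL4 (29.1 to 31.2) against 61.9 FPKM in IVA12 (60.2 to 63.6), a 2.05-fold higher level in IVA12 (1.963 to 2.15). The strand setting used in counting is not stated. The study names Ensembl annotations for its combined reference, and overlaps in those annotations were not examined here. In the GENCODE annotations, transcripts on the opposite strand overlapped 21% of the TAPBP exon bases and 24.9% of those of Tapbp. The same overlap was 14.8% for HLA-B, 14.2% for TAP1, 18.5% for Tap2, 17.3% for PSMB8 and 14.7% for Psmb8.

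Of the immunoproteasome subunits, PSMB8 was the human member that was higher in Jurkat. PSMB8 (ENSG00000204264, chromosome 6, 32808494 to 32812456), the chymotrypsin-like subunit that replaces PSMB5, measured 67.8 FPKM in Jurkat (65.9 to 69.7) and 37.1 FPKM in TALL104 (35.5 to 38.7). Its level was 1.83-fold higher in Jurkat (1.74 to 1.92). PSMB9 (ENSG00000240065, chromosome 6, 32811913 to 32827628), which replaces PSMB6, measured 12.5 FPKM in Jurkat (11.9 to 13.2) and 12.2 FPKM in TALL104 (11.5 to 13.0). The interval of its ratio, Jurkat over TALL104, ran from 0.946 to 1.11, and its log2 ratio of 0.03 became -0.07 after scaling by the median ratio of the pair.

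Both mouse subunits were higher in EL4 by similar factors. Psmb8 (ENSMUSG00000024338, chromosome 17, 34197721 to 34201454) measured 75.1 FPKM in EL4 (72.6 to 77.7) against 23.6 FPKM in IVA12 (21.97 to 25.2), a 3.19-fold higher level in EL4 (2.95 to 3.45). Psmb9 (ENSMUSG00000096727, chromosome 17, 34181987 to 34187764) measured 35.1 FPKM in EL4 (34.0 to 36.1) against 10.1 FPKM in IVA12 (9.46 to 10.8), a 3.47-fold higher level (3.23 to 3.73). The Psmb8 to Psmb9 ratio was 2.14 in EL4 and 2.33 in IVA12, and the interval of the fold between these ratios, 0.981 to 1.21, included 1. In the human pair the PSMB8 to PSMB9 ratio was 5.42 in Jurkat (5.10 to 5.76) and 3.04 in TALL104 (2.82 to 3.27).

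NLRC5 is the transactivator that binds the promoters of class I genes with the RFX, CREB and NF-Y factors. NLRC5 (ENSG00000140853, chromosome 16, 57023397 to 57117443) measured 3.50 FPKM in Jurkat (3.33 to 3.68) and 17.4 FPKM in TALL104 (16.9 to 17.8), a 4.96-fold higher level in TALL104 (4.69 to 5.25). Nlrc5 (ENSMUSG00000074151, chromosome 8, 94434356 to 94527272) measured 18.3 FPKM in EL4 (17.6 to 19.1) against 3.38 FPKM in IVA12 (3.03 to 3.77), a 5.41-fold higher level in EL4 (4.82 to 6.10). In each pair NLRC5 or Nlrc5 was higher in the line in which both heavy chains and the light chain were higher. It was the lowest member in Jurkat, EL4 and IVA12.

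**Figure D2:**
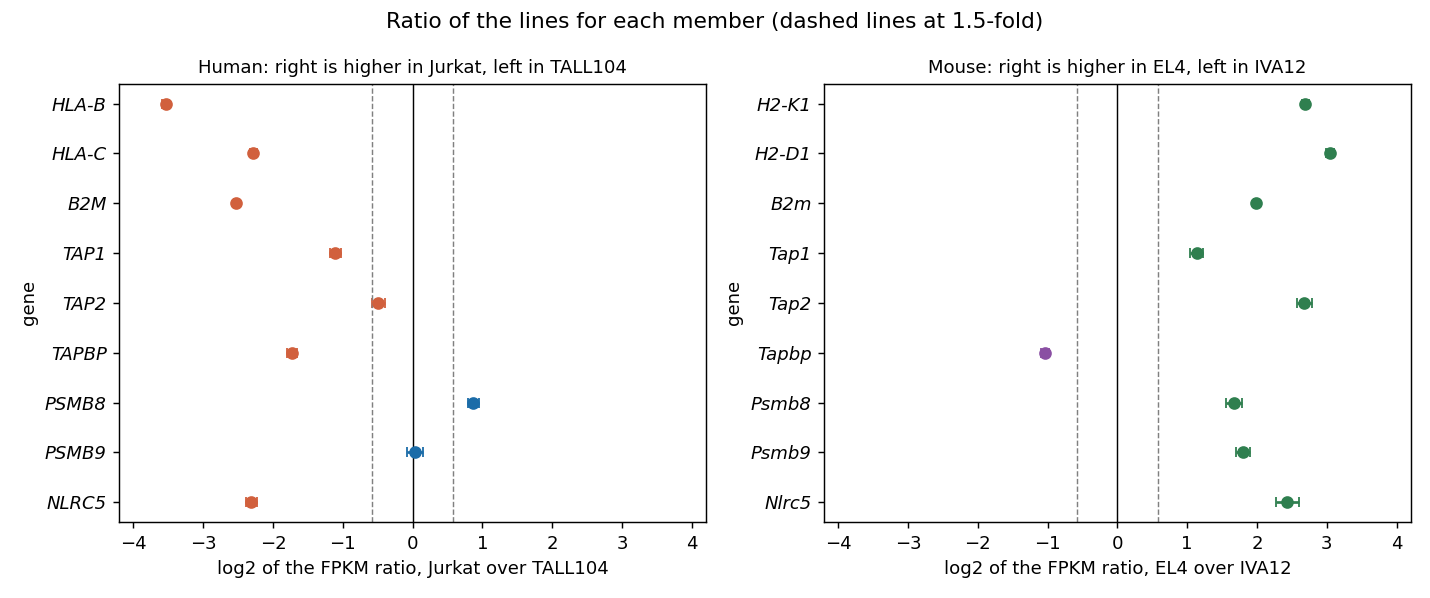
Log2 of the FPKM ratio for each member, Jurkat over TALL104 at left and EL4 over IVA12 at right, with 95% counting intervals; points are coloured by the line with the higher level and dashed lines mark 1.5-fold. PSMB8 is the 1 human member right of the dashed lines, and Tapbp is the 1 mouse member left of them.

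The order of the levels was alike at its top in all 4 libraries, with the light chain first. In TALL104, EL4 and IVA12 a heavy chain came second, HLA-B or H2-K1. In Jurkat PSMB8 came second, at 67.8 FPKM, above HLA-C and HLA-B. Most neighbours in the order had counting intervals that did not overlap. The exceptions were TAP1 and PSMB9 in Jurkat, PSMB9 and TAP2 in TALL104, and Tap1 and Psmb9 in IVA12.

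TAP1 and PSMB9 are neighbours that point away from each other, with 488 bases between their RefSeq starts. Their levels were nearly equal in Jurkat, with a TAP1 to PSMB9 ratio of 1.03 (0.963 to 1.10), and unequal in TALL104, with a ratio of 2.28 (2.13 to 2.44). In the mouse pair the Tap1 to Psmb9 ratio was 0.649 in EL4 (0.621 to 0.678) and 1.03 in IVA12 (0.945 to 1.11). The members of this short stretch of the class II region did not share 1 ratio between the lines.

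Promoter sequences are shown as background, since NLRC5 and the interferon regulatory factors can act there. The part of these factors in the members' levels was not tested. The table of RefSeq promoters on GRCh38.p14 held 8 of the 9 human members, and the 250 bases before the start were searched on both strands. The letters, which were chosen after these sequences were seen, were AANNGAAA for the core bound by interferon regulatory factors (IRF core), TGACG for the core of the X2 box bound by CREB and ATF factors, and CCAAT for the Y box bound by NF-Y. The stretches below hold all 3 motifs (HLA-B, HLA-C and B2M), flank the shared TAP1 and PSMB9 region, or belong to PSMB8, the member higher in Jurkat. Capitals mark motif matches on either strand, and adjoining or overlapping matches run together.
HLA-B (chr6:31357180-31357429, minus strand): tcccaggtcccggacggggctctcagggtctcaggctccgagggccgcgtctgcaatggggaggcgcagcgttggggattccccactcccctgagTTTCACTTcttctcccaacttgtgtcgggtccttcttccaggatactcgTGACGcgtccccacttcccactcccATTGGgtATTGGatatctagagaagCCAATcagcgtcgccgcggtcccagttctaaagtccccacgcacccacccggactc
HLA-C (chr6:31272093-31272342, minus strand): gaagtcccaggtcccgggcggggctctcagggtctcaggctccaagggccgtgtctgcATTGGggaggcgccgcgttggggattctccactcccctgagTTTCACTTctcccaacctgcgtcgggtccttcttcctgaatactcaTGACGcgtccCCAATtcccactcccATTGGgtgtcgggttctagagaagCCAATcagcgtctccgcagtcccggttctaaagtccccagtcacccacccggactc
B2M (chr15:44711267-44711516, plus strand): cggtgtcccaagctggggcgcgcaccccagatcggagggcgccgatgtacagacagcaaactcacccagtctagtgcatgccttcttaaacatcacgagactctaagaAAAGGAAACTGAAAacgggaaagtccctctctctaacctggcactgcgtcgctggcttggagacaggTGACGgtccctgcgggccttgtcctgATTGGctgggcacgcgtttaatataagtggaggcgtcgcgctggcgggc
TAP1 (chr6:32853705-32853954, minus strand): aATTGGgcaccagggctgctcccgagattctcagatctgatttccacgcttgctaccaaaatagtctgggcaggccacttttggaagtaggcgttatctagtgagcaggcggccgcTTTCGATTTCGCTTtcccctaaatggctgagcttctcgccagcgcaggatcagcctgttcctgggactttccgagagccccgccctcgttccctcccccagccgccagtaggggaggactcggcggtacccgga
PSMB9 (chr6:32853942-32854191, plus strand): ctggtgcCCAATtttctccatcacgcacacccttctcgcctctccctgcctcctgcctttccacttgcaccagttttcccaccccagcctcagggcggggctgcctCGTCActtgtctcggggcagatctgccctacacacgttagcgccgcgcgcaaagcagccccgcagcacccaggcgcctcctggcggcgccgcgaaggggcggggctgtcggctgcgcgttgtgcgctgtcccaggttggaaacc
PSMB8 (chr6:32844680-32844929, minus strand): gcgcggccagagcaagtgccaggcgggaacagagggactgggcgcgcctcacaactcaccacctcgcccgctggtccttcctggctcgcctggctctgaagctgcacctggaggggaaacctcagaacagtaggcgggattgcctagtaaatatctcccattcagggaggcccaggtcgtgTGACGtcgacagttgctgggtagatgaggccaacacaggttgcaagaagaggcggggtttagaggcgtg

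The IRF core was found in 6 of the 8 stretches, against 20.3% of 35116 RefSeq promoters of the same length. The 2 stretches without it were those of PSMB8 and PSMB9. The IRF core of TAP1 lies between the TAP1 and PSMB9 starts, outside the window searched for PSMB9. The X2 box core was found in 6 of 8, against 21.2% of all promoters, and the Y box core in 5 of 8, against 32%. All 3 were found together in HLA-B, HLA-C and B2M, against 1.19% of all promoters. Because the letters were chosen after these sequences were seen, setting the members beside all promoters is no test of enrichment. The members also entered with 1 start each, the farthest upstream, while the shares over all promoters counted every listed start. A match gives letters in the window and not a bound site, and a missing match says only that these letters are not in the window. The windows of TAP1 and PSMB9 overlap at their upstream ends, and the Y box core counted for each is the same site in that overlap. Genes of 1 family share sequence by descent, as HLA-B and HLA-C do.

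The catalytic subunits were also read as pairs, because an immunoproteasome subunit takes the place of its constitutive counterpart. In the human pair the constitutive genes were higher in Jurkat. PSMB5 had 60.7 FPKM in Jurkat and 14.0 FPKM in TALL104 (4.34-fold, 4.00 to 4.71), PSMB6 had 72.2 FPKM and 31.8 FPKM (2.27-fold, 2.13 to 2.42), and PSMB7 had 94.6 FPKM and 34.7 FPKM (2.73-fold, 2.60 to 2.87). PSMB10, the immunoproteasome counterpart of PSMB7, had 12.6 FPKM in Jurkat and 16.1 FPKM in TALL104. Of the mouse counterparts, Psmb5 had 95.4 FPKM in EL4 against 132.6 FPKM in IVA12, and Psmb6 had 75.4 FPKM and 97.9 FPKM. Psmb7 had 60.6 FPKM in EL4 against 77.6 FPKM in IVA12, and Psmb10 had 31.6 FPKM and 39.6 FPKM. These mouse genes lay within 1.5-fold.

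The immunoproteasome subunits made up 29.0% of the summed level of the 6 catalytic genes in Jurkat (28.4% to 29.6%) and 44.8% in TALL104 (43.7% to 45.9%). The summed level of these subunits was nevertheless higher in Jurkat, at 92.9 FPKM against 65.4 FPKM, and that of the constitutive subunits was 227 FPKM against 80.5 FPKM. Among the mouse lines the share was 38.0% in EL4 (37.3% to 38.7%) and 19.2% in IVA12 (18.6% to 19.9%). There the summed level of immunoproteasome subunits was 142 FPKM in EL4 against 73.2 FPKM in IVA12, and that of constitutive subunits was 231 FPKM and 308 FPKM. The lines with more heavy-chain RNA, TALL104 and EL4, had the larger share in their species. The summed constitutive level was lower in both of these lines, while the summed immunoproteasome level was lower in TALL104 and higher in EL4.

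By pair of subunits, PSMB8 made up 52.8% of PSMB8 and PSMB5 in Jurkat (51.7% to 53.8%) and 72.6% in TALL104 (70.9% to 74.3%). PSMB9 made up 14.8% of PSMB9 and PSMB6 in Jurkat and 27.7% in TALL104, and PSMB10 made up 11.8% and 31.7% of PSMB10 and PSMB7. All 3 human shares were higher in TALL104. For the mouse lines, Psmb8 made up 44.1% of its pair in EL4 and 15.1% in IVA12, and Psmb9 made up 31.7% and 9.35%. Psmb10 made up 34.3% of its pair in EL4 (32.9% to 35.6%) and 33.8% in IVA12 (32.4% to 35.1%), and these intervals overlapped. Psmb10 lies outside the MHC, unlike Psmb8 and Psmb9. The human PSMB10, on chromosome 16, also lies outside it, and its ratio to PSMB7 differed 3.47-fold between the human lines (3.11 to 3.86). Whether location bears on these shares was not tested.

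**Figure D3:**
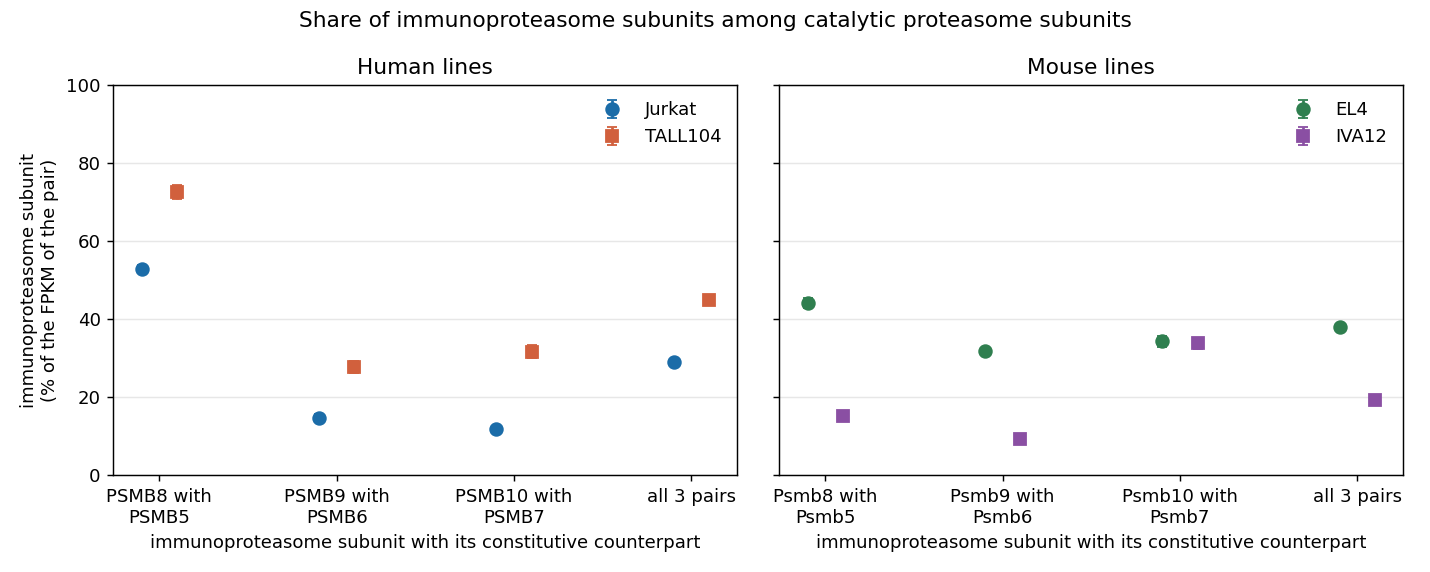
Share of each immunoproteasome subunit in the summed FPKM of itself and its constitutive counterpart, in percent, for each pair and for the 3 pairs together, in the human lines (left) and the mouse lines (right), with 95% counting intervals. The share is higher in TALL104 than in Jurkat for every pair, and higher in EL4 than in IVA12 for the first 2 pairs and within counting error for Psmb10 with Psmb7.

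The other genes of the pathway were read from lists chosen by function. Counts past 1.5-fold in these lists stand beside the shares over all genes of at least 1 FPKM in either line. Those shares were 34.2% higher in Jurkat and 28.4% in TALL104, and 23.8% higher in EL4 and 26.5% in IVA12. A list count near these shares is no result about that list. Of 6 human genes of peptide loading and trimming, 3 were more than 1.5-fold higher in TALL104 and 1 in Jurkat, with a median log2 ratio of -0.70. TAPBPL, a tapasin relative that edits peptides, had 4.89 FPKM in Jurkat and 21.8 FPKM in TALL104, and the chaperone gene CALR had 393 FPKM and 179 FPKM. Of 5 mouse genes, 2 were higher in IVA12 and none in EL4, with a median of -0.55. Tapbpl had 3.52 FPKM in EL4 against 29.9 FPKM in IVA12, an 8.51-fold higher level in IVA12 (7.48 to 9.72), and Calr had 234 FPKM and 385 FPKM. Tapbp and Tapbpl were thus both higher in IVA12, the line with the lower heavy-chain levels.

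Of 9 other proteasome genes, 5 were higher in Jurkat and 1 in TALL104, with a median log2 ratio of 1.10, and PSMB5 and PSMB7 had the largest ratios. Of the 9 mouse counterparts, 2 were higher in IVA12 and none in EL4, with a median of -0.35. These were the subunits of the PA28 activator, which opens the proteasome and is induced by interferon-gamma. Psme1 had 57.2 FPKM in EL4 against 176 FPKM in IVA12 (3.08-fold, 2.97 to 3.19), and Psme2 had 55.3 FPKM and 176 FPKM (3.19-fold, 3.06 to 3.33). Their direction was opposite to that of Psmb8 and Psmb9.

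Of 9 further human heavy-chain genes and relatives, 5 were higher in TALL104 and 2 in Jurkat, with a median log2 ratio of -0.59. HLA-E, the ligand of the NKG2A receptor, had 24.8 FPKM in Jurkat and 356 FPKM in TALL104, a 14.3-fold higher level (13.8 to 14.9). CD1D, which presents lipids, was at 21.3 FPKM in Jurkat but listed at 0 for TALL104. Of 11 mouse genes, 5 were higher in EL4 and 3 in IVA12, with a median of 0.49. H2-T24 was listed at 0 for EL4 but at 58.2 FPKM for IVA12, and H2-Q6 had 0.0746 FPKM and 17.3 FPKM, with 10.5% of its read-length stretches shared with other genes. The mouse heavy chains outside the classical genes therefore did not share 1 direction.

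Genes that regulate class I were read next, NLRC5 left aside as a member. Of 14 human regulators, 7 were higher in Jurkat and 2 in TALL104, with a median log2 ratio of 0.56. EZH2, a histone methyltransferase that can silence class I genes, had 47.3 FPKM in Jurkat and 9.92 FPKM in TALL104, and IRF2 had 9.28 FPKM and 27.9 FPKM. IRF1, the interferon-induced activator of class I genes, had 15.4 FPKM in Jurkat and 22.2 FPKM in TALL104 (1.44-fold, 1.38 to 1.503).

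Of 14 mouse regulators, 2 were higher in EL4 and 2 in IVA12, with a median of 0.11. Creb1 had 10.1 FPKM in EL4 against 1.03 FPKM in IVA12, and Atf1, a related factor, had 51.5 FPKM and 175 FPKM. Irf1 had 6.49 FPKM in EL4 against 19.4 FPKM in IVA12, a 2.98-fold higher level in IVA12 (2.75 to 3.24). Irf1 was thus higher in the line in which 8 of the 9 members were lower, unlike IRF1 in the human pair, whose ratio lay within 1.5-fold in the direction of the members.

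Of 13 human interferon response genes, 8 were higher in TALL104 and 3 in Jurkat, with a median log2 ratio of -0.85. GBP2, an interferon-induced GTPase, had 0.0596 FPKM in Jurkat and 21.9 FPKM in TALL104, and the signalling inhibitor SOCS1 had 0.258 FPKM and 12.7 FPKM. The 3 genes higher in Jurkat were IFNGR2, IFIT1 and IFIT3. IFIT1 had 2.12 FPKM in Jurkat and 0.0229 FPKM in TALL104, and IFIT3 had 1.98 FPKM and 0.388 FPKM. The human response genes therefore did not share 1 direction. Of the 13 mouse genes, 6 were higher in EL4 and 6 in IVA12, with a median of -0.49. Isg15 had 1.81 FPKM in EL4 against 47.0 FPKM in IVA12, and the receptor gene Ifngr1 had 78.9 FPKM and 7.49 FPKM. The sources used here name no interferon treatment of any line.

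**Figure D4:**
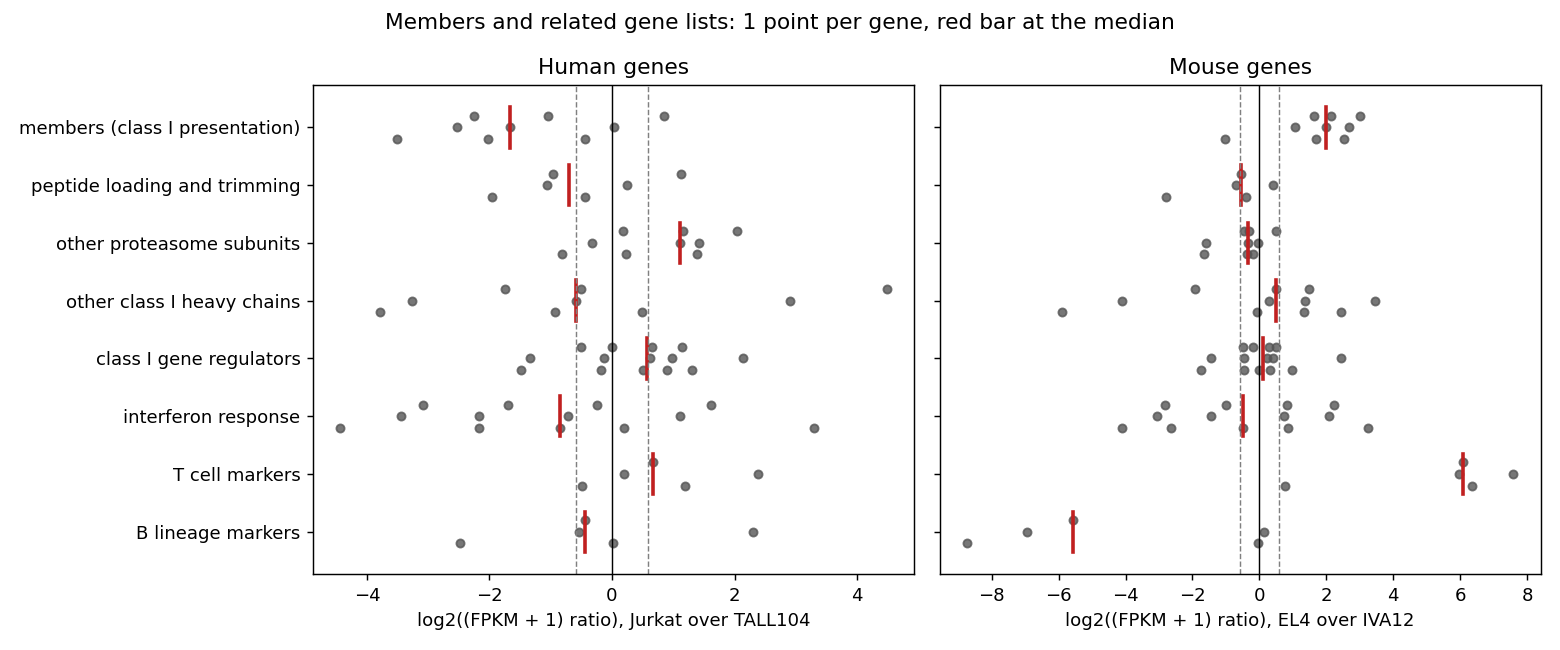
Log2 ratio on FPKM + 1 of every gene in the members and 7 related lists, Jurkat over TALL104 at left and EL4 over IVA12 at right, with 1 point per gene, a red bar at the median of each list and dashed lines at 1.5-fold. The members' median lies at -1.66 for the human lines and 1.98 for the mouse lines, while the other proteasome genes have medians of 1.10 and -0.35.

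The genes whose pattern over the 4 libraries was most like that of the members were found by distance. The members' pattern was the mean over the 7 members with a symbol shared by both species of log2(FPKM + 1), centred per gene, at -0.67 for Jurkat, 0.30 for TALL104, 0.90 for EL4 and -0.53 for IVA12. Among 4264 genes with a shared symbol and at least 5 FPKM in every library, the nearest were KIDINS220, ARHGAP5, CDK17, TRAM1 and IRF2BPL, at distances of 0.150 to 0.307. KIDINS220 had 11.02 FPKM in Jurkat and 20.6 FPKM in TALL104, and its mouse counterpart 31.4 FPKM in EL4 against 10.5 FPKM in IVA12. With 4 libraries of different lines this likeness is a description.

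Reads had been aligned to both genomes together, so members of the other species give a background in each library. The highest such value was B2M in IVA12, at 0.904 FPKM or 72 reads. The lowest own-species member in any library was Nlrc5 in IVA12, at 3.38 FPKM. Each member of a library's own species was higher than every member of the other species in that library. Some genes of the related lists, such as GBP2 in Jurkat and H2-Q6 in EL4, lay below the highest of these background values in their library.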

How the data were processed

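RNA was extracted with RNeasy columns, and stranded mRNA libraries were read in pairs of 101 bases. According to the methods of the study, reads were aligned by the authors with STAR 2.5.1b to a combined hg19 and mm10 reference named for Cell Ranger 1.2.0 and assigned to genes with featureCounts 1.6.3. The authors deposited FPKM, with no replicates. The strand setting, the gene lengths and the treatment of reads with several alignments are not given in the sources used here.

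Whole reads were recovered from the FPKM as the smallest gene length, up to 300000 bases, at which all 4 libraries gave whole reads within 1e-06. The annotated length gave whole reads for 23.1% of human and 73.3% of mouse genes above 0. Where a common factor was missed, true reads are a multiple of those used, so intervals are too wide and shares in reads would change, while FPKM and folds would not. Levels have exact Poisson intervals, folds between lines exact conditional intervals, and ratios and shares within a library log-normal intervals, all at 95% and for counting error only. Ratios for counts and medians used FPKM + 1, which understates changes of low genes, and a difference was counted above 1.5-fold. Folds in the text are ratios of FPKM without a pseudocount. With 1 library per line, no count model or test was used. The calculation was run on simulated libraries in which the annotated gene lengths were the true ones. That run did not test genes whose annotated length differs from the one behind the FPKM. Alternatives were pseudocounts of 0.1 and 0.01, 2 scalings, a 2-fold threshold, a minimum of 1 FPKM, shares in reads, and shares without the PSMB10 pair.

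Symbols and positions came from GENCODE human release 44 mapped to hg19 and mouse release M21. Copies of 101-base stretches were searched in all transcripts of these annotations, and exon overlaps were taken from them. The reads were counted by the authors on their own reference, for which the study names Ensembl annotations, and those gene models can differ. Calculations used SciPy 1.17.1, pandas 2.3.3 and NumPy 2.4.6 under Python 3.11.15, and figures matplotlib 3.10.9.

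The members and lists were chosen with earlier results of these data known. Named genes are all members, the 2 genes of each list and pair that differed most by log2 ratio in either direction, the catalytic subunits PSMB5, PSMB6, PSMB7 and PSMB10 and the regulator IRF1 with their mouse counterparts, and the 5 genes nearest in pattern. CD3D, CD79A, Cd79a and Ms4a1 were named as markers. IFIT1, IFIT3 and the genes of the closing observations were named after their values were seen. Some further genes of that rule are not reported here.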

Additional observations from a re-analysis of the deposited data

Results flagged for a closer look

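Each library held reads on members of the other species, which take no part in the comparisons between lines, above the 3 reads that a count of 0 allows. Summed over the 9 members, there were 27 reads in Jurkat (exact Poisson interval 17.8 to 39.3) and 27 reads in TALL104 on mouse members. There were 45 reads in EL4 (32.8 to 60.2) and 151 reads in IVA12 (128 to 177) on human members. B2m or B2M was the highest of these genes in every library, with 14 reads in Jurkat, 11 in TALL104, 72 in IVA12 and 24 in EL4. The members of the library's own species held 27845 to 199154 reads, and no library of the series is a control for this signal.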

How the results depend on the processing

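The direction of the members' medians and of every member past 1.5-fold was kept under all alternatives. Scaling the human pair by the median ratio, a shift of 0.11 on the log2 scale, or to equal human totals without mitochondrially encoded genes, moved the median log2 ratio of the human members from -1.66 to -1.77 in both cases. With a 2-fold threshold, 0 human members were higher in Jurkat in place of 1, since PSMB8 lies between the thresholds. Of 72 recomputed log2 ratios of single members, 50 moved by no more than the distance from the middle of their counting interval to its end. The other 22 moved by more, and 0 of those past 1.5-fold changed direction. PSMB9, which lay within 1.5-fold, went from 0.03 to -0.07 under both scalings. In recovered reads, not per length, the immunoproteasome share was 32.4% in Jurkat, 49.5% in TALL104 and 17.5% in IVA12. Without the PSMB10 pair it was 51.8% in TALL104, 37.7% in Jurkat, 39.2% in EL4 and 12.7% in IVA12. The order of the lines within a species was kept in each case, and the size of the gap was not.

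With 1 library per line, differences between lines cannot be told apart from differences between cultures or library preparations. In GENCODE, exons of 11 members overlapped annotated transcripts on the opposite strand, over 0.918% to 24.9% of their bases, and 4 on the same strand. The counted gene models can differ from these. Without the strand setting of the counting, reads of these overlaps cannot be assigned to either gene. No paired analysis was possible because each line has 1 library and the result comes from no test.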

Other observations

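Further genes of the related lists, chosen after their values were seen, are given here by their levels, with no test. Irf9, a subunit of the factor that type I interferon activates, had 1.09 FPKM in EL4 against 16.6 FPKM in IVA12, a 15.2-fold higher level in IVA12 (interval 13.1 to 17.7). The antiviral gene Mx1 had 0.137 FPKM in EL4 against 6.11 FPKM in IVA12, and Stat2 had 7.96 FPKM and 16.9 FPKM. Jak1, the kinase of interferon receptors, was higher in EL4, at 38.5 FPKM against 8.33 FPKM in IVA12. In the human pair JAK1 was higher in TALL104, at 187 FPKM against 21.04 FPKM in Jurkat, and IFNGR2, a chain of the interferon-gamma receptor, was higher in Jurkat, at 11.9 FPKM against 0.310 FPKM.

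Among heavy chains outside the classical genes, HLA-F had 0.798 FPKM in Jurkat and 16.2 FPKM in TALL104, and MR1, which presents vitamin B metabolites, had 4.01 FPKM and 15.9 FPKM. FCGRT, the heavy chain of the neonatal Fc receptor, had the opposite direction, with 6.76 FPKM in Jurkat and 0.0338 FPKM in TALL104. In the mouse pair H2-Q7 had 27.3 FPKM in EL4 against 1.57 FPKM in IVA12, and H2-Q4 had 88.4 FPKM and 15.5 FPKM. H2-T23, the mouse counterpart of HLA-E, had 12.9 FPKM in EL4 against 52.1 FPKM in IVA12, so this gene was higher in the mouse line with the lower classical heavy chains, while HLA-E was higher in the human line with the higher ones. Exact read-length stretches shared with other genes covered 11.8% of H2-Q7, 2.04% of H2-Q4 and 3.05% of H2-T23.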
